A study of Rattus norvegicus with 18 samples.

Results

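The collagen, laminin and nidogen chains are the structural proteins of interstitial matrix and of basement membranes. They were taken here as the genes whose annotation symbol is a numbered collagen alpha chain, a numbered laminin alpha, beta or gamma chain, or Nid1 or Nid2. This gave 49 of the 13807 genes on the arrays, made up of 37 collagen, 10 laminin and 2 nidogen chains. A gene is represented by the brightest of its probe sets (the groups of short probes for a transcript), by mean log2 signal over the 9 libraries. In this way 36 members were read on array type A and 13 on type B, from 71 probe sets in all. The chains Col4a3, Col6a4, Col6a5, Col6a6, Col20a1, Col25a1 and Col28a1 were not analysed here.

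The libraries came from testes of 22-day-old rats, with 1 array of each type per population and so no replicates. The somatic populations were tubular somatic cells, from the seminiferous tubules, and interstitial cells, from the tissue between tubules. The germ cell populations were cells cultured for 20 days on MSC1 feeders, cells cultured for 1, 5, 10 or 20 days on STO feeders, cells that bound to laminin, and cells that did not bind. STO cells are mouse embryonic fibroblasts kept as a line and MSC1 cells a mouse line of Sertoli cell character, while the arrays are for rat, so the part of feeder RNA in a signal was not tested. The labels name no strain and do not say how many animals were pooled.

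Fibrillar collagens such as types I, III and V form the fibres of connective tissue. Type IV collagen and laminin form the networks of a basement membrane, and nidogens bridge them. A laminin is a trimer of an alpha, a beta and a gamma chain, and most collagens are trimers as well, so that partner chains are needed together. In the testis, the basement membrane of the tubule lies between Sertoli cells and spermatogonia on the inner side and peritubular myoid cells on the outer side. Spermatogonial stem cells can be enriched by their binding to laminin.

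The sequence upstream of a gene's start could be read from RefSeq on the GRCr8 assembly for 39 members, and for 22 of them the window of 250 bases ended at the outermost annotated start. The 2 chains of the main type IV collagen, Col4a1 (chr16:84885597-84996482) and Col4a2 (chr16:84749672-84885520), lie head to head. The stretch between their starts holds 76 bases with a GC share of 78.9%, and it is shown because both chains are read away from it. The capitals mark GGGCGG, the core of a GC box, here on the minus strand.
Col4a1-Col4a2, chr16:84885521-84885596, plus strand: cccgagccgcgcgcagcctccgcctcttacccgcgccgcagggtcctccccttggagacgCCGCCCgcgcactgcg

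The next 4 sequences belong to chains whose signals differed between the populations, and each is written 5′ to 3′ on the strand of its gene. For Col1a2 only the bases from 250 to 151 upstream of the start are printed, so the stretch does not reach the start. Its capitals mark CCAAT, on the opposite strand, at 221 to 217 bases upstream, and TATAAA at 170 to 165 bases upstream. For Col6a1 they mark TGANTCA, the AP-1 motif, and for Lamc1 and Lama5 they mark GGGCGG on either strand.
Col1a2, chr4:33518307-33518406, plus strand: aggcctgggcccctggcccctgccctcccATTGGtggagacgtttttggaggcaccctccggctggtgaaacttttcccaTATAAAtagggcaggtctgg
Col6a1, chr20:11905440-11905689, plus strand: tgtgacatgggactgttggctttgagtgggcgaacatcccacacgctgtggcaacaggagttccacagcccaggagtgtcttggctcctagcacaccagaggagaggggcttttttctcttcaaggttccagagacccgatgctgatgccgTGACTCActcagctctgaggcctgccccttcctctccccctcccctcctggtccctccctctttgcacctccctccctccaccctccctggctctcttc
Lamc1, chr13:68051987-68052236, minus strand: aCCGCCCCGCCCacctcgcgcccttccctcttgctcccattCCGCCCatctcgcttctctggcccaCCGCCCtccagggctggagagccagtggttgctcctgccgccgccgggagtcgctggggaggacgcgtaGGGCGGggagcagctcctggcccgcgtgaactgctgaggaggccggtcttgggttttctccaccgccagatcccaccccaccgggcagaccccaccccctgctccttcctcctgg
Lama5, chr3:187695975-187696224, minus strand: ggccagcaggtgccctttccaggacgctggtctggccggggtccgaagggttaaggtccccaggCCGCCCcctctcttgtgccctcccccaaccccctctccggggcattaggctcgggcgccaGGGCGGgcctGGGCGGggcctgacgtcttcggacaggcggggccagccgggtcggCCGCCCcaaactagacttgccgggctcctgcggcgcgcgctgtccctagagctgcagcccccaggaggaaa

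Both strands were searched. GGGCGG was found in 10 of the 22 members' windows and in 30.5% of the 33469 windows of all genes, and 2 of its 5 matches in the Lamc1 window overlap. CCAAT was found in 6 of the 22 members and in 34.0% of all windows. TATAAA was found in 5 of the 22 and in 12.9% of all windows, and TGANTCA in 1 of the 22 and in 6.34% of all windows. These matches describe the letters in the windows only.

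Signals are intensities on a linear scale, which the authors had scaled on each array to an average of 250. Signals under 50 were raised to that floor for folds, and a chain was called higher or lower where the fold was at least 3 and the brighter side at least 250. With 1 library per population these calls carry no p-value, and a fold cannot be set against the spread between animals. From the sets printed on both array types, the standard deviation of a log2 fold on 1 array type was put at 0.20 to 0.27. This covers array error alone. Probe sets differ in brightness, so each chain is compared only with itself across libraries. Fewer cells of a type and less RNA per cell cannot be told apart in these bulk samples.

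Summed marker signals followed the labels, though not every marker did. The summed signal of the 7 germ cell markers on the arrays was 827 in tubular somatic and 789 in interstitial cells, against 14274 to 32496 in the 7 germ cell libraries. Kit, a marker of differentiating spermatogonia within that list, lay near or below the floor everywhere. Sertoli cell markers, 10 of 12 on the arrays, summed to 12112 in tubular somatic cells and to 6846 in interstitial cells. The interstitial sum leaned on Aldh1a1, which had 2507 in tubular somatic and 3221 in interstitial cells. Wt1, Dhh and Clu were called higher in tubular somatic cells, 5.25-fold, 5.75-fold and 10.4-fold. Sox9 and Amh were under the floor in both fractions. The ratio of 3′ to 5′ signal of the Gapdh probe sets on type A, a measure of how far RNA is truncated, was 14.7 to 29.7 in the 5 feeder cultures and 5.63 to 11.2 in the other libraries. On type B the feeder cultures had 15.0 to 27.1 and the other libraries 5.33 to 16.7, so tubular somatic cells lay above STO day 20 there.

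Of the 49 members, 27 reached 250 in some library and 22 did not. The highest signals of those 22 ran from 21.2 for Col19a1 to 242 for Col11a1. Col19a1 and Col27a1 exceeded the floor in no library. The interstitial library was the highest of the 9 for 22 members, which is 44.9%, whereas it was the highest for 14.3% of all genes. Cells on MSC1 feeders were highest for 8 members (16.3%, against 14.9% of all genes), and the tubular somatic library for Col18a1, Lamb2 and Lamc3 (6.12%, against 14.1%). STO cultures were highest for 3 members on day 1, 7 on day 5, 0 on day 10 and 2 on day 20, where the shares of all genes were 5.79%, 12.4%, 5.64% and 8.39%. The binding cells were highest for 3 members and the non-binding cells for 1, against 12.7% and 11.8% of all genes.

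**Figure D1:**
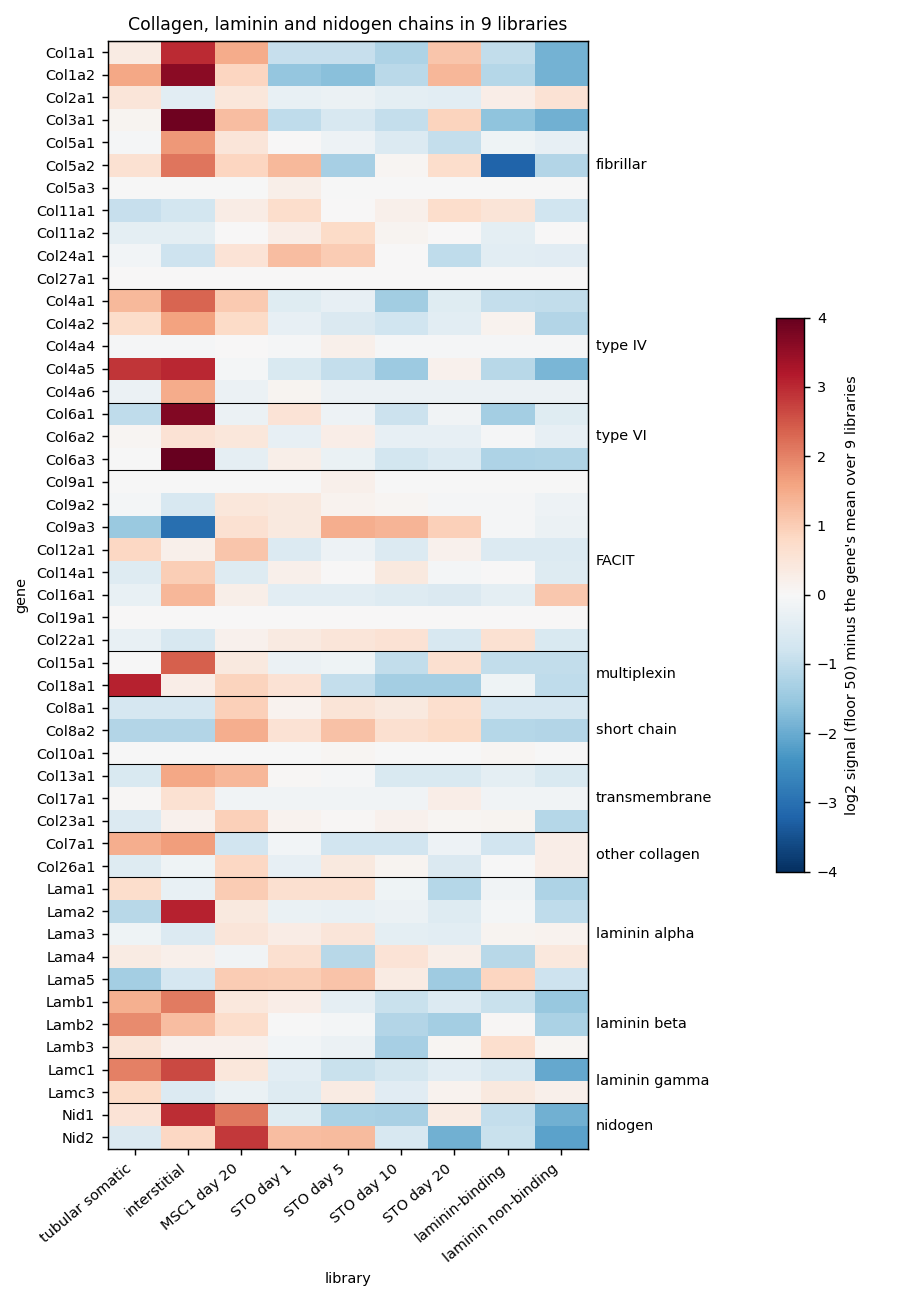
Signals of the 49 chains in the 9 libraries, each as log2 signal (floor 50) minus the chain's own mean over the 9 libraries, with chains in rows by class and libraries in columns. The interstitial column holds the highest value of 22 chains, and Nid2 stands out on MSC1 feeders and on STO days 1 and 5.

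Somatic cells were compared with the laminin-sorted germ cells, the germ cell libraries that had met no feeder layer. A group of 7 chains of basement membrane and fibrillar matrix was higher in both somatic fractions than in both sorted fractions: Col1a2, Col3a1, Col4a1, Col4a5, Col5a2, Lamb1 and Lamc1. These 7 are 14.3% of the members, against 2.30% of all genes called higher. No member was called lower, against 1.69% of all genes.

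Col4a5 (chrX:109907251-110111214), a type IV chain, had signals of 1343 in tubular somatic and 1505 in interstitial cells, against 86.6 in laminin-binding and 52 in non-binding cells. The nearest pair of libraries differed 15.5-fold, the widest gap among these chains. Col4a1 had 390.5 in tubular somatic and 800.3 in interstitial cells, against 82.4 and 80.5 in binding and non-binding cells, 4.74-fold at the nearest pair. Its head-to-head neighbour Col4a2 had 377 in tubular somatic and 698 in interstitial cells, against 252 in binding and 101 in non-binding cells. Col4a2 was also highest in the somatic cells but was not called, because binding cells lay close to tubular somatic cells.

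Of the 10 laminin chains, Lamc1 and Lamb1 were called in this comparison. Lamc1 (chr13:67924872-68051986), the gamma chain of most laminins, had 1986 in tubular somatic and 3034 in interstitial cells, against 311 in binding and 118 in non-binding cells. Lamb1 (chr6:53562849-53630118), the beta chain of the common laminins, had 1710 in tubular somatic and 2657 in interstitial cells, against 346 in binding and 224 in non-binding cells. The nearest pairs differed 6.38-fold for Lamc1 and 4.95-fold for Lamb1. Lamb2 (chr8:118056899-118069090), the alternative beta chain, had 1429 in tubular somatic and 904 in interstitial cells, against 398 in binding and 160 in non-binding cells, and was not called at a fold of 3 in each pairing.

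Fibrillar chains completed the group. Col1a2 (chr4:33518557-33553484), the second chain of type I collagen, had 875 in tubular somatic and 3650 in interstitial cells, against 136 in binding and 81.3 in non-binding cells. Col3a1 (chr9:54866646-54902578), which forms type III collagen, had 278 in tubular somatic and 3852 in interstitial cells, against 83.9 and 68.4 in binding and non-binding cells. Col5a2 (chr9:54940768-55090151), a type V chain, had 1373 in tubular somatic and 3940 in interstitial cells, against 96.9 in binding and 400.0 in non-binding cells. Their nearest pairs differed 6.42-fold, 3.32-fold and 3.43-fold, in that order.

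Against the 7 germ cell libraries together, both somatic libraries were above every one of them for 7 members, namely Col1a2, Col4a1, Col4a5, Col7a1, Lamb1, Lamb2 and Lamc1. This share of 14.3% lies near the 11.0% of all genes. Both somatic libraries were below every germ cell library for Col8a2, Col9a3 and Col11a2, a share of 6.12%, against 16.3% of all genes. For Col8a2 and Col11a2 the somatic signals were under the floor and so was the lowest germ cell signal, which leaves their order unsure. Among these, Col9a3 (chr3:188089337-188112034), a chain of the fibril-associated type IX collagen, had 198 in tubular somatic and 68.3 in interstitial cells. Its signals were 846 on MSC1 day 20, 734, 1541, 1433 and 1070 on STO days 1, 5, 10 and 20, 542 in binding and 478 in non-binding cells. Col8a2, a short-chain collagen, had 15.4 and 37.8 in tubular somatic and interstitial cells and at most 310.0, on MSC1 day 20.

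The chains also differed between the tubular somatic and the interstitial fraction. Of the members, 10 were called lower in tubular somatic than in interstitial cells (20.4%, against 3.99% of all genes), and Col18a1 alone was called higher (2.04%, against 3.30%). The median log2 difference, tubular minus interstitial, was -0.24 over the 49 members and 0 over all genes. It was positive for 13 members and negative for 27, and 9 were at the floor in both.

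Type VI collagen forms beaded filaments around cells, and Col6a1 and Col6a3 were called while Col6a2, with 66.8 in tubular somatic and 93.7 in interstitial cells, was not. Col6a1 (chr20:11905690-11924111) had 64.3 in tubular somatic cells against 1684 in interstitial cells, 26.2-fold lower. Col6a3 (chr9:98809171-98887060) had 128 in tubular somatic cells against 2254 in interstitial cells, 17.7-fold lower. In binding and non-binding cells Col6a1 had 43.2 and 92.6 and Col6a3 had 55.7 and 57. Col6a1 and Col6a3 were thus bright in the interstitial library only, since Col6a1 did not pass 189 and Col6a3 did not pass 154 in any other.

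Among fibrillar chains, Col3a1 was 13.8-fold lower in tubular somatic cells and Col1a2 4.17-fold lower, by the signals given above. Col1a1 (chr10:80380458-80397461, gene 29393), the main chain of type I collagen, had 315 in tubular somatic and 1971 in interstitial cells, 6.25-fold lower, against 128 in binding and 67.9 in non-binding cells. Col5a1, a type V chain, had 263 in tubular somatic and 903 in interstitial cells, 3.43-fold lower, with 239 in binding and 215 in non-binding cells. Col5a1 therefore lay near the tubular somatic level in the sorted germ cells.

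Lama2, the alpha chain of muscle-type laminin, had 31.3 in tubular somatic cells, under the floor, and 920.4 in interstitial cells, so that it was at least 18.4-fold lower. Binding and non-binding cells had 103 and 53.9. Nid1 (chr17:93069013-93142416), nidogen 1, had 334 in tubular somatic and 1742 in interstitial cells, 5.21-fold lower, against 116 in binding and 60.4 in non-binding cells. Nid2 (chr15:4507224-4562949) had 717 in tubular somatic and 1896 in interstitial cells, against 576 in binding and 241 in non-binding cells.

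Col15a1 and Col18a1 are the multiplexins, collagens of basement membrane zones whose ends are cleaved off as restin and endostatin. They stood on opposite sides. Col15a1 had 98.6 in tubular somatic and 521 in interstitial cells, 5.28-fold lower, with 40.3 in binding and 47.7 in non-binding cells. Col18a1 (chr20:11473645-11582111) had 1072 in tubular somatic and 154 in interstitial cells, 6.97-fold higher, with 112 in binding and 63.5 in non-binding cells. The second Col18a1 probe set showed the same direction, with 346 in tubular somatic and 74.5 in interstitial cells.

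Col16a1, a fibril-associated collagen, had 628 in tubular somatic and 1928 in interstitial cells, 3.07-fold lower, the smallest fold past the limit. It was also bright in the sorted germ cells, with 579 in binding and 1618 in non-binding cells. On MSC1 day 20 it had 898, and on STO days 1, 5, 10 and 20 it had 565, 566, 531 and 506.

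Summed markers of several interstitial cell types were higher in interstitial than in tubular somatic cells, though not every gene of a list was. The summed signal of 10 fibroblast markers, members left out, was 5459 in tubular somatic and 17181 in interstitial cells, and 5 of the 10 (Pdgfra, Dcn, Lum, Fbn1 and Dpt) were called lower in tubular somatic cells. The fibroblast marker Vim went the other way, with 4454 in tubular somatic and 2589 in interstitial cells, and Thy1 was under the floor in both. Leydig and steroidogenic markers (8 genes) summed to 1594 and 9362, and macrophage markers (9 genes) to 628 and 4981, in tubular somatic and interstitial cells. The Leydig marker Insl3 was under the floor in both. Endothelial markers (8 genes) summed to 479 in tubular somatic and 679 in interstitial cells, and none of them was called. Peritubular myoid markers (8 genes) summed to 4562 in tubular somatic and 3507 in interstitial cells. Tagln was the only one of them called, 14.6-fold higher in tubular somatic cells. Cald1, the brightest of them, had 2102 in tubular somatic and 1838 in interstitial cells. Acta2 and Des were also brighter in tubular somatic cells, Mylk and Myh11 were brighter in interstitial cells, and Cnn1 and Actg2 were under the floor in both. The part of all these markers in the differences between the fractions was not tested.

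**Figure D2:**
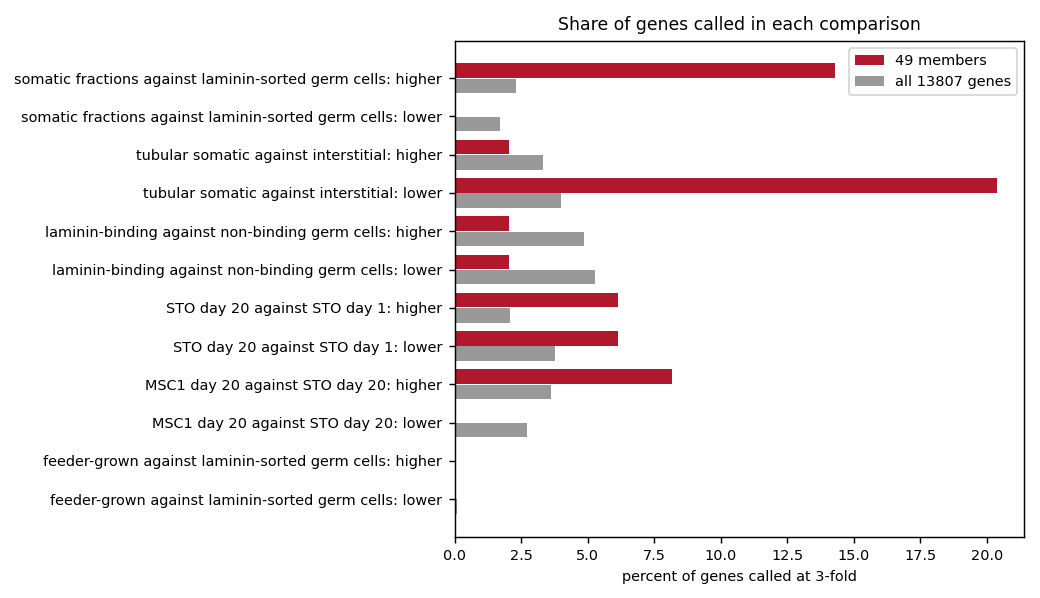
Share of the 49 members (red) and of all 13807 genes (grey) called higher or lower in each comparison, in percent, with 1 library per population. The members' share stands farthest above that of all genes for chains lower in tubular somatic than in interstitial cells, 20.4% against 3.99%.

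Between laminin-binding and non-binding germ cells 2 chains were called. Lama5 was called higher in binding cells (2.04%, against 4.85% of all genes), and Col5a2 was called lower (2.04%, against 5.29%). Lama5 (chr3:187647904-187695974), a broadly expressed laminin alpha chain, had 270.4 in binding cells against 83.7 in non-binding cells, 3.23-fold higher. This call was lost with a floor of 100, with quantile normalization and with the mean over probe sets, where the log2 difference was 1.44, 1.43 and 0.85. Col5a2 was 4.13-fold lower in binding cells, with the signals given above, a call lost with the mean over probe sets. Both shares lie below those of all genes. The median log2 difference, binding minus non-binding, was 0.15 over the members and 0 over all genes, with 29 members higher in binding cells, 10 lower and 10 at the floor in both. With the arrays set to a common 75th percentile, which moves the median of all genes reaching 250 by -0.13 here, 1 member was called higher and 2 lower, against 4.07% and 6.26% of all genes. Germ cell markers summed to 14274 in binding and 29009 in non-binding cells, with Tex101 and Tdrd1 called lower. Sertoli cell markers summed to 1645 in binding and 1026 in non-binding cells, with Cldn11 called, 4.07-fold higher. The list was mixed. Wt1 and Dhh were 2.29-fold and 2.46-fold higher in binding cells, and Vnn1 and Clu were 4.87-fold and 2.41-fold lower, none of them called. The part of these markers in the differences was not tested.

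Culture on STO feeders was followed on days 1, 5, 10 and 20. On day 20 the fibrillar chains Col1a1, Col1a2 and Col3a1 were called higher than on day 1, and Nid2, Lama5 and Col24a1 were called lower. Each direction holds 6.12% of the members, against 2.09% of all genes called higher and 3.76% called lower. The median log2 difference, day 20 minus day 1, was -0.09 over the members, with 14 higher, 29 lower and 6 at the floor in both.

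Col1a2 had 103, 93.5, 141 and 761 on days 1, 5, 10 and 20, so day 20 was 7.39-fold above day 1. Col1a1 had 133, 133, 107 and 539.9, a 4.06-fold difference, and Col3a1 had 129, 166, 133 and 480.2, a 3.72-fold difference. In all of these chains days 1, 5 and 10 were alike and day 20 stood apart. On MSC1 day 20 they were also bright, with 539 for Col1a2, 693 for Col1a1 and 604 for Col3a1.

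Nid2 took the opposite course, with 2484, 2554, 684 and 278 on days 1, 5, 10 and 20, and day 20 was 8.95-fold below day 1. Lama5 had 294, 327, 188 and 55.6, 5.30-fold lower on day 20. Col24a1, a minor fibrillar collagen, had 435, 377, 187 and 90.4, 4.81-fold lower. In these chains days 1 and 5 were the high ones, day 10 was intermediate and day 20 was the lowest. Col24a1 had 169 in tubular somatic and 105 in interstitial cells, 269 on MSC1 day 20, 138 in binding and 135 in non-binding cells. Lama5 had 58.2 in tubular somatic and 94.3 in interstitial cells, below its level in binding cells.

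Lama1, a laminin alpha chain under 250 in all libraries, had 181, 182, 105 and 52.9 on these days. Most partner chains differed less between day 20 and day 1. Lamb1 had 764, 494, 345 and 437 on STO days 1, 5, 10 and 20, and Lamc1 had 366, 260.0, 298 and 363. Lamb2 had 378, 360.1, 169 and 151, the lowest on day 20. Col5a2 had 2212, 357, 956 and 1475, without a single direction, and Col5a1 had 269, 233, 183 and 138. Type IV chains stayed low, with 61.6 to 127 for Col4a1, 131 to 182 for Col4a2 and 67.4 to 211 for Col4a5.

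The remaining named chains were low on STO feeders as well. Nid1 had 164, 94.4, 91.4 and 282 on days 1, 5, 10 and 20. Col18a1 had 190.2, 65.7, 37.4 and 26.3, and Col15a1 had 85.2, 88.8, 42.5 and 154. The ranges over the 4 days were 71.6 to 189 for Col6a1, 78.6 to 154 for Col6a3 and 75.8 to 93.1 for Lama2.

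A line of log2 signal on log2 culture day was fitted with limma over the 4 STO libraries, on the 16066 probe sets averaging 100 or more, and p-values were adjusted by the Benjamini-Hochberg method. No probe set passed the adjusted threshold in either direction, so the background is 0%, and none of the 29 members' probe sets tested did. At an unadjusted p under 0.05, 1 member had a positive and 5 a negative slope, among 592 and 908 of all probe sets. The lowest adjusted p of a member was 0.412 in limma, for Nid2, with a slope of -0.71 log2 units per doubling of culture time (SE 0.18). Col1a2 had a slope of 0.55 with a limma-adjusted p of 0.489. The error in this fit measures how far 4 points lie off a line, since no culture was repeated. With culture day on a linear scale limma called 3 members with positive slopes (Col1a1, Col1a2 and Col3a1) and 4 with negative slopes (Nid2, Lama5, Col24a1 and Lama1), among 588 and 837 of all probe sets.

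**Figure D3:**
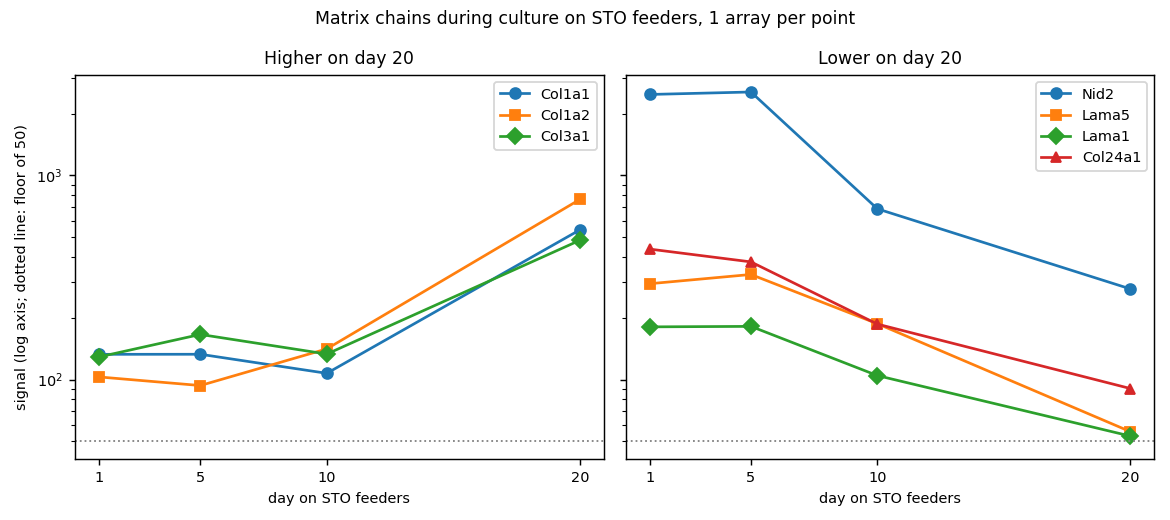
Signal (log axis, floor of 50 dotted) against culture day on STO feeders for Col1a1, Col1a2 and Col3a1 in one panel and Nid2, Lama5, Lama1 and Col24a1 in the other, with 1 array per point and no error bars. Col1a1, Col1a2 and Col3a1 stand apart on day 20, and the other chains are at their lowest on that day.

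Rat fibroblast markers were read beside these courses. Over 10 markers the summed signal was 2219, 1609, 1941 and 2222 on STO days 1, 5, 10 and 20, against 856 in binding and 777 in non-binding cells. None of the 10 was called higher on day 20 than on day 1, and Fbn1 was called lower. Pdgfra had 469.6, 601.9, 649.2 and 300.3 on these days, and Vim had 1068, 494, 958 and 1364, whereas Lum was under the floor on all of them. The Gapdh 3′ to 5′ ratio on type A was 20.7, 20.6, 29.7 and 14.7 on these days. Leydig and steroidogenic markers (8 genes) summed to 253, 275, 201 and 832, and macrophage markers (9 genes) to 708, 641, 548 and 1010, so both sums were highest on day 20, as were Col1a1, Col1a2 and Col3a1. Between day 20 and day 1, Star was 6.47-fold, Hsd11b1 5.16-fold and the macrophage marker Lyz2 6.72-fold higher, and all 3 were called. No other Leydig, steroidogenic or macrophage marker of the lists was called. On days 1 and 20 Mrc1 had 361 and 176, Cd163 125 and 156.5, and Cyp11a1 57.9 and 50.3. Cyp17a1, Hsd3b1, Lhcgr and Nr5a1 were under the floor on both days. Germ cell markers summed to 30379, 32496, 27266 and 25314, but single genes differed from the sum. Sycp3 had 722 on day 1 and 2434 on day 20, and Tex101 had 730.5 and 2697. Both were called higher on day 20, 3.37-fold and 3.69-fold, and no germ cell marker was called lower. Tex15, the brightest of them on both days, had 13775 and 8349. The part of all these markers in the courses of the chains was not tested.

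Between feeder lines at 20 days, 4 chains were called higher on MSC1 than on STO (8.16%, against 3.63% of all genes) and none lower (0%, against 2.72%). Nid2 had 7597 on MSC1 against 278 on STO, 27.4-fold higher, and its MSC1 signal was the highest of its 9 libraries. Lama5 had 305 on MSC1 against 55.6 on STO, 5.48-fold higher. Lamb2 had 618 against 151, 4.10-fold higher, and Nid1 had 968 on MSC1 against 282 on STO, 3.44-fold higher. Both nidogens, a laminin alpha and a laminin beta chain were thus on the MSC1 side.

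The other chains on MSC1 day 20 had 844 for Lamb1, 673 for Lamc1, 143 for Lama2, 332 for Col4a1, 382 for Col4a2 and 177 for Col4a5. Fibrillar Col5a2 had 1619 and Col5a1 379.8, and Col6a1, Col6a3, Col15a1 and Col18a1 had 109, 101, 129.7 and 236. The median log2 difference, MSC1 minus STO, was 0.36 over the members and 0.02 over all genes. Sertoli cell markers summed to 1906 on MSC1 and 884 on STO day 20, and macrophage markers to 2060 and 1010. Cldn11 was 11.1-fold higher on MSC1, and Star and Hsd11b1 were called lower, 3.54-fold and 5.16-fold. Their part was not tested. The Gapdh 3′ to 5′ ratio on type A was 27.4 on MSC1 and 14.7 on STO day 20. A common 75th percentile moves the median of all genes reaching 250 by -0.11 here and turns the shares of all genes to 2.77% higher and 3.71% lower, and the members remain at 4 and 0.

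No member was called in the 10 pairings of the 5 feeder cultures with the 2 sorted germ cell libraries, in either direction, against 0.0435% of all genes called higher and 0.0869% lower. Col8a2 had 310.0 on MSC1 day 20, 166, 254, 175 and 191 on STO days 1, 5, 10 and 20, and 51.4 in binding and 40.7 in non-binding cells. It was 3.23-fold higher at the nearest pair, but its lowest feeder culture was under the limit of 250.

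Partner chains of a trimer were read against each other over the 9 libraries. Both chains of a pair come from the same RNA under the same scaling. Pearson's r of log2 signal was 0.95 for Col1a1 with Col1a2, 0.91 for Col4a1 with Col4a2 and 0.95 for Col6a1 with Col6a3. It was 0.96 for Lamb1 with Lamc1 and 0.85 for Lamb2 with Lamc1. The alpha chains Lama2 and Lama5 followed less closely, with r of 0.60 for Lama2 with Lamc1 and -0.31 for Lama5 with Lamc1. Lama4 was not among the pairs read. Its type A set had 526 in tubular somatic and 1008 in interstitial cells and at most 52.5 in any germ cell library. Lama5 was higher in laminin-binding cells and on STO days 1 and 5 than in the somatic fractions, whereas Lamc1 was highest in the somatic fractions. The r of Nid1 with Nid2 was 0.51 and that of Col5a1 with Col5a2 was 0.46.

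**Figure D4:**
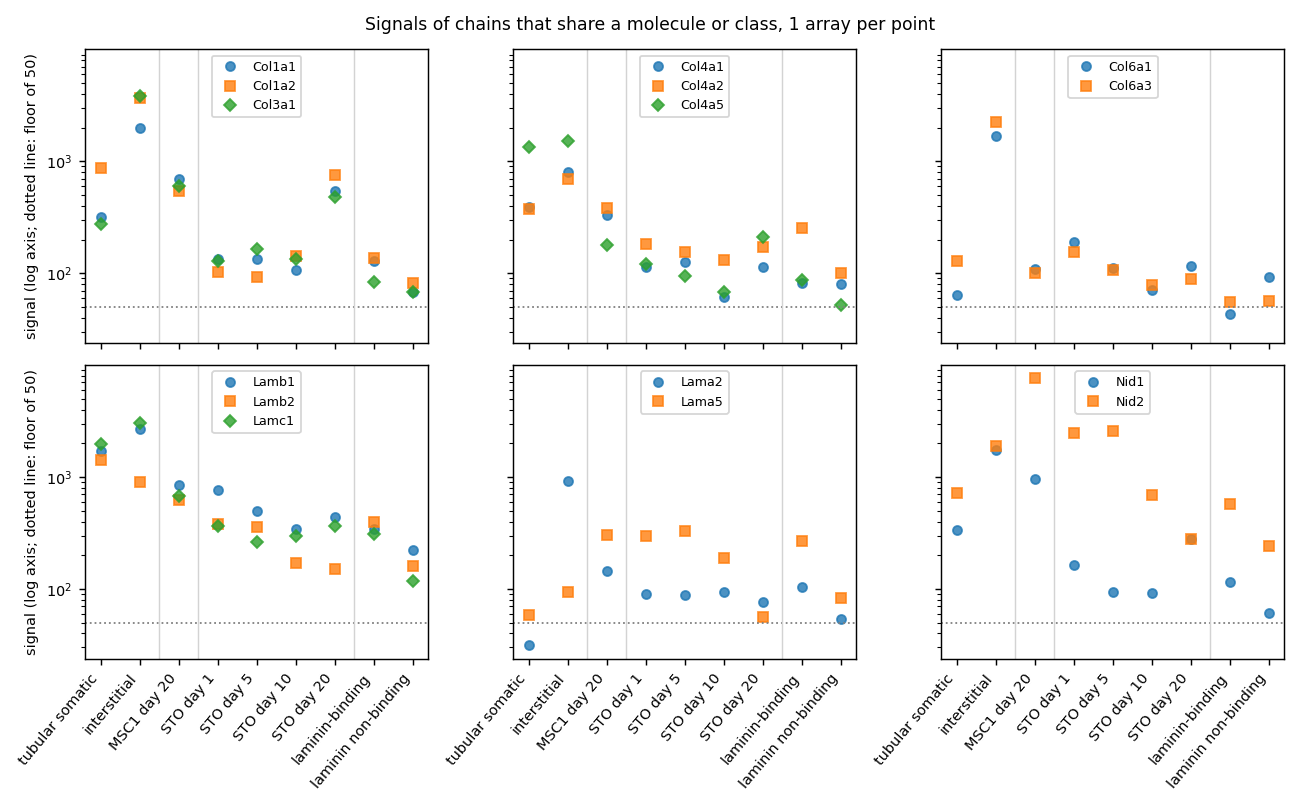
Signal (log axis, floor of 50 dotted) of chains that share a molecule or class, by library, with 1 array per point. Lamb1 and Lamc1 follow each other over the 9 libraries (r of 0.96), as do Col1a1 and Col1a2 (r of 0.95), while Lama2 is bright in interstitial cells and Lama5 is not.

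Neighbours on a chromosome were compared as well. Col3a1 and Col5a2 lie 38190 bases apart on chromosome 9 with an r of 0.72, and among the STO days the brightest Col5a2 set was highest on day 1, where Col3a1 was lowest. The other Col5a2 set was highest on day 20 (480.4), as Col3a1 was, so this contrast depended on the probe set. Col6a1 and Col6a2 lie 97071 bases apart on chromosome 20 with an r of 0.52, but Col6a2 did not pass 93.7 in any library, so that its signals lay near the floor.

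For 18 members with several probe sets the other sets were read as well, and none was called opposite to a call of the brightest set. The second Col1a2 set had 302, 98.3, 179.9 and 661 on STO days 1, 5, 10 and 20 and did not reach the 3-fold limit between days 20 and 1. The second Col5a2 set had 86.2, 44.1, 68.9 and 480.4 on those days and was called higher on day 20. The brightest Col5a2 set was not called and lay lower on day 20, with 1475 against 2212 on day 1. The second Col4a1 and Col5a2 sets were called lower in tubular somatic than in interstitial cells, where the brightest sets were not called. A type B set for Col6a3 was flat, with 62.4 to 114 in all libraries, and a second Nid1 set had 56.3 in tubular somatic and 82.6 in interstitial cells. Of the chains called in the somatic fractions against sorted cells, Lamc1 and Col4a1 had a second set that was not called. The second Lamc1 set had 69.2 in tubular somatic and 147 in interstitial cells, against 45.8 and 47.3 in binding and non-binding cells. Col15a1 likewise had another set that was not called between tubular somatic and interstitial cells, and Lama5 and Nid1 had one between MSC1 and STO.

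Lama4, the alpha chain of endothelial and muscle laminins, depended on the set. Its brightest set, on type B, was called in no comparison, with 135.2 in tubular somatic and 126.5 in interstitial cells. The type A set had 526 in tubular somatic and 1008 in interstitial cells, against 40.4 and 20.7 in binding and non-binding cells, both under the floor. For Lama5 and Col1a1, too, the second set was not called on STO day 20 against day 1.

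**Figure D5:**
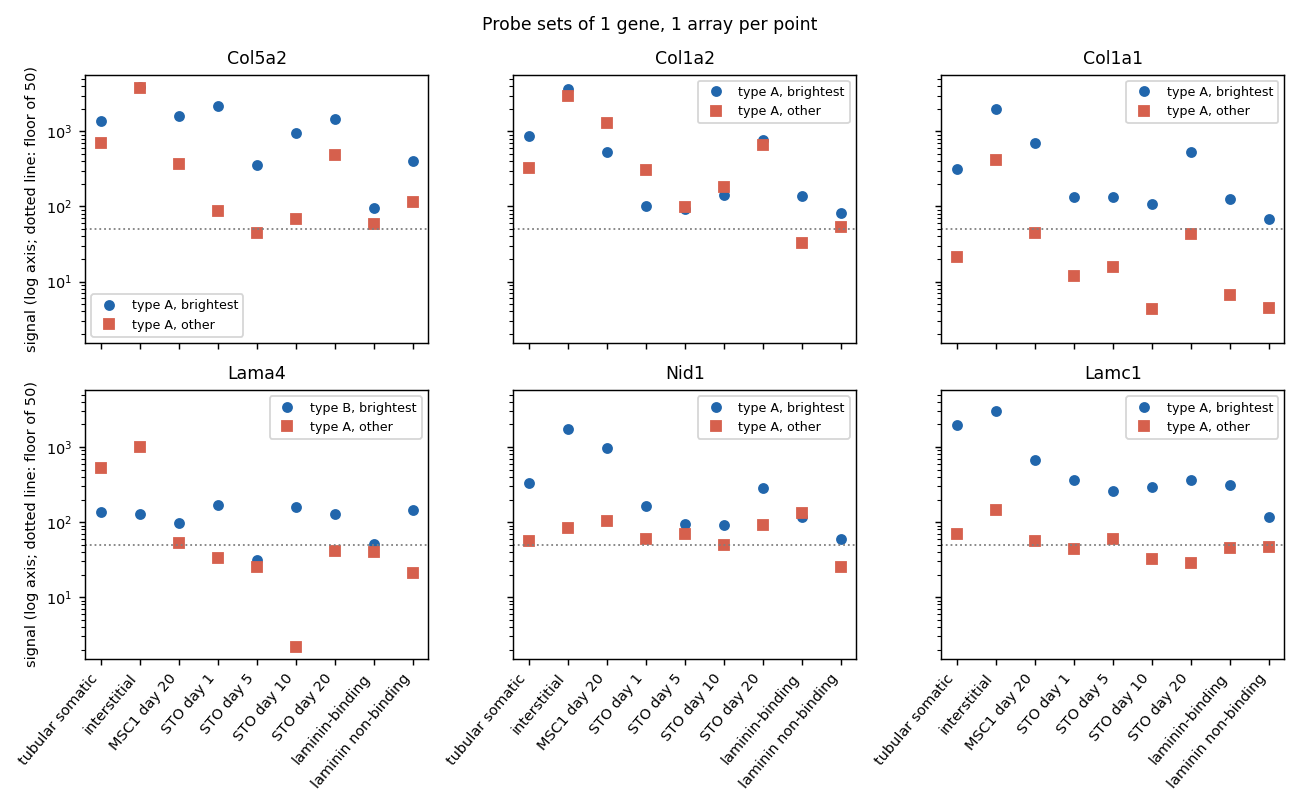
Signal (log axis, floor of 50 dotted) by library of the brightest probe set (blue circles) and another set (red squares) of Col5a2, Col1a2, Col1a1, Lama4, Nid1 and Lamc1, with 1 array per point. The type A set of Lama4 is at 526 and 1008 in tubular somatic and interstitial cells, where the type B set is at 135.2 and 126.5.

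The enzymes that modify and secrete collagen were read from a list of 26, of which 20 were on the arrays. In the somatic fractions Serpinh1, the collagen chaperone HSP47, Pcolce, which enhances procollagen cleavage, and Lox, a crosslinking oxidase, were called higher than in sorted germ cells, and none was lower. Serpinh1 had 782 in tubular somatic and 1104 in interstitial cells, against 35.7 and 47.8 in binding and non-binding cells, at least 15.6-fold. On STO day 20 against day 1, Lox had 729 against 43, at least 14.6-fold higher, P4ha1, a prolyl hydroxylase subunit, had 548 against 144, and Mia3, a collagen export factor, had 1997 against 569.7. These 3 were called higher on the same day as Col1a1, Col1a2 and Col3a1. Elsewhere the list gave Loxl1, a crosslinking oxidase, 8.86-fold lower in tubular somatic than in interstitial cells, and P4ha1 3.26-fold lower in binding than in non-binding cells. On MSC1 against STO at day 20, Bmp1, which cleaves procollagen, was 4.09-fold higher and Mia3 4.69-fold lower.

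Of 13 matrix receptors, 11 were on the arrays. Itga6, the integrin alpha 6 subunit that binds laminin, had 3270.0 in binding against 443 in non-binding cells, 7.38-fold higher, the only receptor of the list called there. It had 7991 in tubular somatic against 272 in interstitial cells, 29.3-fold higher, and Itga3 was 3.04-fold higher. Ddr2, a receptor for fibrillar collagen, had 108 in tubular somatic against 885 in interstitial cells, 8.20-fold lower. No receptor of the list was called in the other 4 comparisons.

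Among the other chains that reached 250, Col7a1, Col22a1, Col23a1 and Lamc3 were called in no comparison. Col22a1 lay between 295 and 697 in all 9 libraries and Lamc3 between 203 and 499. Col7a1, the anchoring fibril collagen, had 232 in tubular somatic and 274 in interstitial cells and at most 104 elsewhere. Col23a1 had 72.3 to 304, the highest on MSC1 day 20.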

How the data were processed

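Per the labels, 50 ng of total RNA per population went through 2 rounds of amplification and was hybridised to 2 types of 1-colour array. The deposited values are intensities, 1 linear signal per probe set, scaled by the authors to an average of 250 on each array. Per the labels, detection calls used a Tau of 0.015, and these calls were not used here. For the software and background treatment, the sources used here give nothing. The labels list scale factors of 0.391 to 1.512 for type A arrays and 1.047 to 4.009 for type B arrays.

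Of 31042 probe sets counted, 20253 had 1 gene in the platform annotation, and only these were named. All 49 members' symbols matched RefSeq (GRCr8). Signals under 50 were raised to 50. Members were called at a fold of 3 with the brighter side at 250, in every pairing where a side has several libraries (4 pairings for somatic against sorted cells). Values in every library are given for the 20 members called in any comparison and for partner chains reaching 250, for some of them as a range over the STO days. The members and lists were chosen with earlier results of these data known. The trend used limma 3.58.1 in R 4.3.3 and was tested on simulated data. Python 3.11.15 with pandas 2.3.3 and numpy 2.4.6 did the rest. The number of arrays limits the precision. Alternatives were floors of 25 and 100, other scalings, other probe set rules, a fold of 2 and a brighter side of 100.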

Additional observations from a re-analysis of the deposited data

How the results depend on the processing

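Of 114 counts of called members recomputed under other settings, 95 stayed within 1.5 times the reported count, 15 moved and 4 passed the threshold anew. Of 240 recomputed folds of called chains, 227 stayed called, 13 no longer passed the limit and 0 reversed. A fold of 2, a brighter side of 100 and the lower floor could not end a call made at the main limits. Folds under these settings were thus bound to stay called, and their part of the 227 tests nothing. The lower floor could not change a count of chains called by fold either, so those counts among the 95 test nothing. A fold of 2 gave 1 member lower in somatic than in sorted cells, 2 higher in tubular than in interstitial cells, 6 higher and 2 lower in laminin-binding cells, 5 lower on STO day 20 than on day 1, and 8 higher on MSC1 than on STO. The shares of all genes were then 3.90%, 7.10%, 10.5%, 9.72%, 7.78% and 8.37%, in this order. A brighter side of 100 gave 5 lower on STO day 20, 7 higher on MSC1 and 1 higher on feeders than in sorted cells, against 4.93%, 5.24% and 0.0579% of all genes. Lama5 in laminin-binding cells was not called with a floor of 100, with quantile normalization or with the mean over probe sets (0 members in each), and Col5a2 there was not called with the mean over probe sets (0). A common 75th percentile gave 2 members lower in binding cells. The mean over probe sets left 2 members higher on MSC1. Log2 folds that lost their call ranged from 0.85 to 1.57 in size for chains that were higher and from -1.20 to -1.56 for chains that were lower. The STO trend on a linear day scale called 3 members with positive slopes (Col1a2, Col1a1 and Col3a1, limma-adjusted p of 0.00719, 0.0469 and 0.0471) and 4 with negative slopes (Nid2, Lama5, Col24a1 and Lama1, limma-adjusted p of 0.00176, 0.0105, 0.0134 and 0.0360), among 588 and 837 of all probe sets. Leaving out 1 day at a time gave 0 to 3 members with positive and 0 to 4 with negative slopes, all of them without day 1, where 850 and 883 of 16009 probe sets were called. Without day 1 the members with positive slopes were Col1a1, Col1a2 and Col5a2, and Col3a1 was not called (limma-adjusted p of 0.0992). The cause of these changes was not tested. No paired analysis was possible because each population has 1 array per type and no replicate numbers. The mean over probe sets ended 8 of the 13 lost calls and the floor of 100 ended 3. Signals near the floor give uncertain folds.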

Other observations

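All 14 matrix proteases and inhibitors of the list were on the arrays. In the somatic fractions 6 were called higher than in sorted germ cells: the protease inhibitors Timp1 (6.60-fold at the nearest pair) and Timp2 (5.56-fold), the aggrecanases Adamts1 (6.30-fold) and Adamts4 (4.42-fold), and the collagen-cleaving Mmp14 (3.27-fold) and Mmp2 (3.25-fold). Mmp3 and Timp3 were 5.10-fold and 4.35-fold higher in tubular somatic than in interstitial cells, and Mmp2 was 6.63-fold lower. Adamts5 was at least 11.0-fold lower there. Mmp2 had 401 on STO day 20 against 125 on day 1, and Mmp14 had 525 on MSC1 against 131 on STO day 20. Mmp3 was 3.36-fold lower in binding than in non-binding germ cells.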
